A study of Mus musculus with 4 samples.

Results

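The 10 genes described here encode secreted proteins of the extracellular matrix that act on cells as well as on the scaffold. They are the tenascins Tnc and Tnxb, the thrombospondins Thbs1 and Thbs2, periostin (Postn), Sparc and its relative Sparcl1, fibronectin (Fn1), hemicentin (Hmcn1) and osteopontin (Spp1). They were taken by name from the 18619 genes of the expression table. Of the 10, 9 had at least 1 unique molecular identifier (UMI, the tag that counts 1 captured transcript). Spp1 had 0 UMIs in 4108 cells, which at 3 counts allows a level of up to 0.0651 in 1e+06 UMIs, or 0.0801 by the exact 95% limit used below.

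Messenger RNA was counted in single stromal cells of the adult mouse intestine (C57BL/6J background) by droplet sequencing from the 3-prime end. Cells of all groups carried a Cre recombinase that is driven by the Pdgfrb promoter and switched on by tamoxifen (PDGFRb-CreERT2), together with a Tomato reporter, and were sorted as PDGFRb+ cells by FACS. The series held 4 samples in 3 groups, namely 2 libraries of wild type (WT) cells with Cre and reporter alone, 1 library of cells that also carried Lats1f/f and Lats2 f/f, labelled 1w (LATS1/2 KO 1w), and 1 such library labelled 2w. The values below come from LATS1/2 KO 1w alone, and nothing compares KO with WT. Cre could act in every kind of cell that used the Pdgfrb promoter, and in which cells it did so was not measured here. Which animal each column of this library came from was not given in the sources used here.

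Matricellular proteins are released into the matrix, where they change how cells hold on to it and how growth factors reach them. In fibroblasts many of them answer to mechanical load and to TGF-beta. LATS1 and LATS2 are the kinases that hold back the coactivators YAP and TAZ, which act on DNA through TEAD factors, and Amotl2 is one of their well-known target genes. It served here as the measure along which cells were ordered.

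With 1 library, no test between samples could be made. A level (CPM) is the summed UMI count of a gene over the cells in question, scaled to a total of 1e+06. Brackets hold exact 95% intervals (a normal approximation on the log scale where a ratio is set against another ratio) that cover counting error only, since cells of 1 library are not replicates. The library had 46054627 UMIs with a median of 10726 per cell. Columns of the table were marked M for 1983 cells and F for 2125 cells according to Xist, and ratios within the M and the F columns stand beside pooled ones where they matter. Lats1 was counted at 8.63 to 19.7 CPM and Lats2 at 31.0 to 81.5 CPM in the clusters below. As 3-prime reads need not lie in a deleted exon, this does not check the label of the library. From the Y-linked UMIs seen in cells with Xist, free RNA in the droplets was put at no more than 8.64% of a gene's library level.

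Promoters are shown because members that moved together with Amotl2 can be set beside members that did not. RefSeq (GRCm38.p6, the same assembly as mm10) gave promoter sequence for 7 of the 10 members, and the 250 bases before the start of transcription were searched on both strands. The motifs were GGAAT, the core that TEAD factors bind, and TGANTCA, the AP-1 site, which do not overlap in these windows. GGAAT lay in the windows of Hmcn1, Sparc and Tnc and in 34.2% of the 32851 promoters of the table. TGANTCA lay in that of Tnxb and in 6.75% of all promoters. Postn, Spp1 and Thbs2 held neither. The Sparc match falls in a window of which 231 bases are annotated as UTR of other transcripts in GENCODE M21, so its letters are not printed. The following windows run from 5' to 3' on the strand of the gene, with matches in capitals. ATTCC is GGAAT read on the other strand.
Tnc, chr4:64047016-64047265, minus strand: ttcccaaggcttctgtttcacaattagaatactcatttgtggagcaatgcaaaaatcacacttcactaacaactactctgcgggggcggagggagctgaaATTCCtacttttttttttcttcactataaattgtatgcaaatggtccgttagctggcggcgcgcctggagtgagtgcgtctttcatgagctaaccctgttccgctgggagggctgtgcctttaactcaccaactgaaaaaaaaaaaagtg
Hmcn1, chr1:150993436-150993685, minus strand: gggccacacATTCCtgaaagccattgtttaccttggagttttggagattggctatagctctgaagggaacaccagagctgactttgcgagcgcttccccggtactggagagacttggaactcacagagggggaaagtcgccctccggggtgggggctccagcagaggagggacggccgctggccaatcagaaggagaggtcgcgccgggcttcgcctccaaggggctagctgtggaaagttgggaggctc
Thbs2, chr17:14694263-14694512, minus strand: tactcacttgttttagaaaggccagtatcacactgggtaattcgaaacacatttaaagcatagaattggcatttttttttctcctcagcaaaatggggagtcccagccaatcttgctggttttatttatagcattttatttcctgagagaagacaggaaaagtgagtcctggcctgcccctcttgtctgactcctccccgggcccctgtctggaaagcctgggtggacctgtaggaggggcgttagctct
Tnxb, chr17:34670285-34670534, plus strand: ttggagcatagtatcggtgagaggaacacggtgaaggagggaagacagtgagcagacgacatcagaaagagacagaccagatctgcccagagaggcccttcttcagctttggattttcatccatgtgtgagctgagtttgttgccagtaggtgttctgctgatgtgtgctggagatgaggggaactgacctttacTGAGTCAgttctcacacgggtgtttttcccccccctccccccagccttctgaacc
The GGAAT match began at position -150 in Tnc and at -241 in Hmcn1, counted back from the start of transcription, and the TGANTCA match of Tnxb at -55. Tnc has another annotated start, with a window at chr4:64046937-64047186 that is not printed. Counted from that start, the same match began at -229. A match is a string of letters and not a measured binding site.

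Clustering without the members, their relatives, their receptors and the YAP/TAZ targets gave 10 clusters, which marker genes put into 6 classes. Clusters 1, 2, 3, 5 and 6 were vFB1-2-like, fibroblasts of the villi, with 3018 cells and 3 to 5 of 5 markers each. Cluster 4 was FB4-like, submucosal fibroblasts, with 694 cells and 4 of 4 markers. The other classes were FB5-like subepithelial fibroblasts (cluster 7, 205 cells, 5 of 6 markers), SMC-like smooth muscle (cluster 8, 77 cells, 5 of 5), MC-like mural cells (cluster 9, 69 cells, 6 of 6) and vFB3-like villus fibroblasts (cluster 10, 45 cells, 5 of 5). The authors had removed cells with Ptprc and cells with Pecam1 and Cdh5, so low levels of these do not check the sort. No immune, endothelial, epithelial or mesothelial marker listed passed 5.28 CPM (Kdr, endothelial, in MC-like cells) in any class, with Tyrobp, an immune marker, at 2.03 CPM in vFB1-2-like cells. The 2 highest genes listed for interstitial cells of Cajal reached 68.6 CPM (Ano1, MC-like) and 223 CPM (Etv1, FB5-like). Some borders were soft. No vFB1-2 marker was among the 10 leading genes of any of the 5 vFB1-2-like clusters. Of the markers listed for that class, only Adamdec1 and Edil3 were highest in it. Shisa3 and Serpina3n were higher in FB4-like cells, at 125 and 238 CPM, than in vFB1-2-like cells, at 88.55 and 149 CPM. Cxcl12 was highest in FB5-like cells, at 2034 CPM against 1305 CPM in vFB1-2-like cells. Cluster 3 had the vFB3 marker Fhl2 among its own, and clusters 3 and 6 stood at 62.3 and 114 CPM in Mmp10 and at 319 and 348 CPM in Fhl2, against 1060 and 459 CPM in vFB3-like cells. Kcnj8 and Abcc9, known from mural cells, led the FB5-like cluster, and the fibroblast gene Adamdec1 stood at 4302 CPM in SMC-like cells against 4736 CPM in vFB1-2-like cells. The part of these borders in the levels below was not tested, except that leaving out cluster 3, cluster 6 or both changed the highest and lowest class of no member. These names were rebuilt here and may differ from those of the study.

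The members were unevenly spread over the classes. The highest class exceeded the lowest by at least 5-fold for 6 of the 9 members with UMIs, which were Tnc, Tnxb, Thbs1, Thbs2, Postn and Hmcn1, against 14.8% of the 8191 genes with at least 500 UMIs. The median of that ratio was 12.2 over the 9 members and 2.06 over all these genes. Fn1 fell just short of the limit at 4.996-fold (4.31–5.81). It passed the limit in M columns (6.39) and among cells with at most 5% mitochondrial UMIs (11.4). It also did so when nothing was regressed out in the clustering (5.06), where 7 members passed. Sparcl1 and Sparc spanned 4.57-fold and 2.92-fold. The classes at the ends stayed the same for Tnc, Tnxb and Hmcn1 in every alternative run that bore on the classes, while for Thbs2 SMC-like cells were highest, at 12.8-fold over MC-like cells, among cells with at most 5% mitochondrial UMIs, and for Sparcl1 FB4-like cells were highest in M columns. In M columns the lowest class was also another one for Thbs1 and Fn1 (MC-like), Thbs2 and Sparc (FB5-like) and Sparcl1 (vFB3-like).

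**Figure D1:**
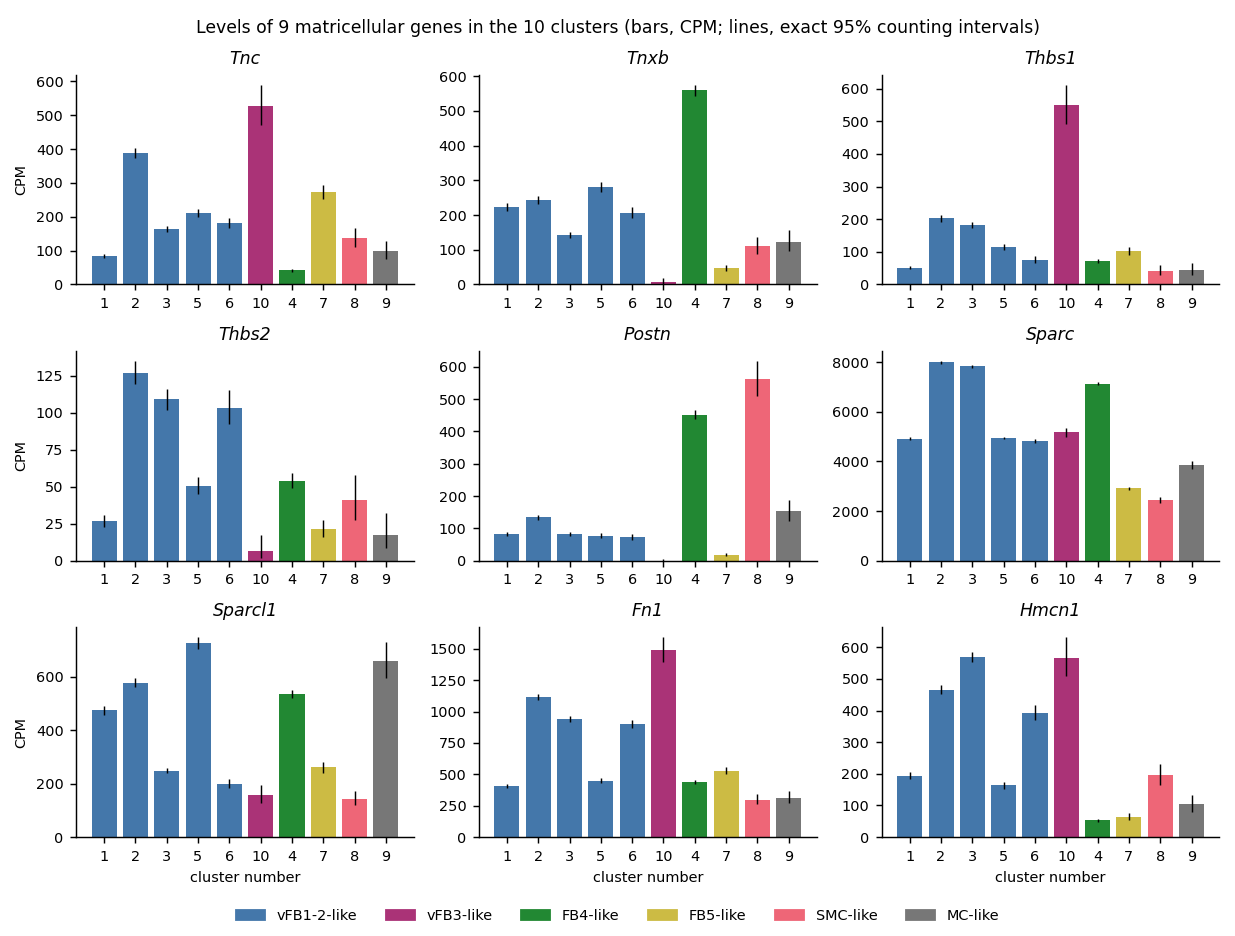
Level of each member with UMIs (vertical axis, CPM, starting at 0) in the 10 clusters (horizontal axis), coloured by class, with exact 95% counting intervals as lines. Cluster 10 (vFB3-like) stands highest for Tnc, Thbs1 and Fn1 and near 0 for Tnxb, Thbs2 and Postn, and the 5 vFB1-2-like clusters differ among themselves.

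Fibronectin and hemicentin, which belong to the matrix scaffold, were both highest in vFB3-like cells. Fn1 (ENSMUSG00000026193, mm10 chromosome 1, 71585520 to 71653200, minus strand), the adhesion protein that integrins assemble into fibrils, stood at 1490 CPM (1392–1592) there, and then at 774 CPM (765–784) in vFB1-2-like, 529 CPM in FB5-like and 438 CPM in FB4-like cells. The lowest levels were 315 CPM in MC-like and 298 CPM in SMC-like cells, whose ratio of 1.06 (0.864–1.29) did not separate them. Hmcn1 (ENSMUSG00000066842, chromosome 1, 150562524 to 150993435, minus strand), a very large protein of basement membranes, was at 568 CPM (508–632) in vFB3-like and 372 CPM (366–379) in vFB1-2-like cells. It was low in FB4-like cells at 52.5 CPM (47.8–57.6) and in FB5-like cells at 64.0 CPM. Among single clusters, cluster 3 of the vFB1-2-like class stood at 569 CPM (553–585), level with vFB3-like cells. In the FB4-like class the columns marked M gave 29.6 CPM and those marked F 69.6 CPM, yet both were below the 318 and 418 CPM of the vFB1-2-like class. The 29.6 CPM lay near the 25.2 CPM that free RNA could give.

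The tenascins ran in opposite directions across the fibroblast classes. Tnc (ENSMUSG00000028364, chromosome 4, 63959785 to 64047015, minus strand), tenascin-C of growing and injured tissue, was highest in vFB3-like cells with 528 CPM (471–591), followed by FB5-like cells with 273 CPM (253–294) and vFB1-2-like cells with 211 CPM (206–216). FB4-like cells had the lowest level of the 6 classes, 41.6 CPM (37.4–46.2), which was 12.7-fold (10.9–14.8) below that of vFB3-like cells. SMC-like and MC-like cells lay between, at 137 and 98.5 CPM, and their ratio of 1.39 (0.992–1.95) did not separate them. Their order turned with the marks, since SMC-like cells had 251 CPM in M and 84.2 CPM in F columns and MC-like cells 71.1 and 118 CPM, and in M columns the SMC-like level was 1.03 times that of vFB1-2-like cells. Tnxb (ENSMUSG00000033327, chromosome 17, 34670535 to 34719815, plus strand), tenascin-X, which binds and spaces collagen fibrils, was highest in the same FB4-like cells, at 560.0 CPM (544–576), or 2.60-fold (2.50–2.69) the 216 CPM of vFB1-2-like cells. FB4-like cells held 39.5% of all Tnxb UMIs and 4.23% of all Tnc UMIs, against 18.7% of the UMIs of the library. In vFB3-like cells Tnxb had 4 UMIs, or 6.88 CPM (1.87–17.6), below the 22.9 CPM that free RNA could give.

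Thrombospondins 1 and 2, related trimers that bind CD47 and CD36 and hold back vessel growth, parted in vFB3-like cells. Thbs1 (ENSMUSG00000040152, chromosome 2, 118111876 to 118127133, plus strand), which also activates latent TGF-beta, reached 549 CPM (490–612) there, 4.05-fold (3.60–4.54) the 135 CPM of vFB1-2-like cells. The remaining classes ran from 102 CPM (FB5-like) and 71.8 CPM (FB4-like) down to 44.0 CPM (MC-like) and 42.03 CPM (SMC-like), and the last pair was not separated. Thbs2 (ENSMUSG00000023885, chromosome 17, 14665500 to 14694235, minus strand) was instead highest in vFB1-2-like cells at 84.2 CPM (81.1–87.4). Only 4 Thbs2 UMIs lay in vFB3-like cells, or 6.88 CPM, close to the free RNA bound of 6.27 CPM. Levels in FB4-like and SMC-like cells, 54.0 and 40.7 CPM, did not differ beyond counting error, nor did those of FB5-like and MC-like cells, 21.2 and 17.6 CPM.

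Postn (ENSMUSG00000027750, chromosome 3, 54361109 to 54391037, plus strand), periostin, a collagen-binding protein of load-bearing tissue, was highest in SMC-like and FB4-like cells. It was at 562 CPM (510.2–618) in SMC-like and 451 CPM (437–466) in FB4-like cells, which together with 153 CPM in MC-like cells exceeded the 92.9 CPM of vFB1-2-like cells. FB4-like cells held 51.8% (50.6–52.9) of all Postn UMIs. In vFB3-like cells no Postn UMI was seen among 581385 UMIs, and against a floor of 3 UMIs in that class the SMC-like level was at least 109-fold higher, or at least 36.6-fold in M and 64.9-fold in F columns. The exact lower limit of the ratio over 0 UMIs was 88.2. FB5-like cells had 18.8 CPM (13.8–25.01), little above the free RNA bound of 14.1 CPM. Over the whole library Postn was at 123 CPM in M columns and 196 CPM in F columns.

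Sparc (ENSMUSG00000018593, chromosome 11, 55394500 to 55423183, minus strand), a calcium- and collagen-binding protein that takes part in collagen deposition, varied least. It ran from 7129 CPM (7073–7185) in FB4-like and 6427 CPM in vFB1-2-like cells to 2445 CPM (2335–2558) in SMC-like cells, and each class differed from the next beyond counting error. In M columns SMC-like cells, at 2768 CPM, stood above FB5-like cells, at 2644 CPM. Its relative Sparcl1 (ENSMUSG00000029309, chromosome 5, 104079111 to 104113733, minus strand), hevin, was highest in MC-like cells at 660 CPM (595–730.1), then in FB4-like cells at 537 CPM and vFB1-2-like cells at 460 CPM. Cluster 5 of the vFB1-2-like class, at 726 CPM (705–749), stood above the MC-like level. vFB3-like and SMC-like cells were lowest at 158 and 144 CPM, with a ratio of 1.10 (0.821–1.46). The SMC-like level rested on 110 UMIs and differed between the marks, 285 CPM in M and 80.4 CPM in F columns. Spp1 (ENSMUSG00000029304, chromosome 5, 104435118 to 104441050, plus strand), the integrin-binding osteopontin of bone and macrophages, had no UMI in any class.

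By the annotation, Spp1 overlaps Gm42793 on the same strand, where reads that both genes share can go uncounted, so that its 0 UMIs need not mean absence. The authors removed genes seen in fewer than 3 cells, yet the expression table held a row for Spp1. Whether Spp1 was counted in cells that are not in that table was not tested. Genes on the opposite strand overlap Tnc, Tnxb, Thbs1, Sparcl1, Fn1 and Hmcn1, and whether strand was used in counting was not given in the sources used here.

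The members were next ordered by Amotl2. Each cell was thinned at random to 5000 UMIs (94 cells of the library were too shallow and were left out), and cells with 0, 1 or at least 2 Amotl2 UMIs were compared, so that depth did not decide the stratum. In the vFB1-2-like class these were 1771, 697 and 495 cells. Their median depths before thinning were 10031, 10912 and 11835 UMIs, and the share of columns marked M was 52.6%, 45.8% and 43.6%. Levels were taken from all UMIs of these cells.

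**Figure D2:**
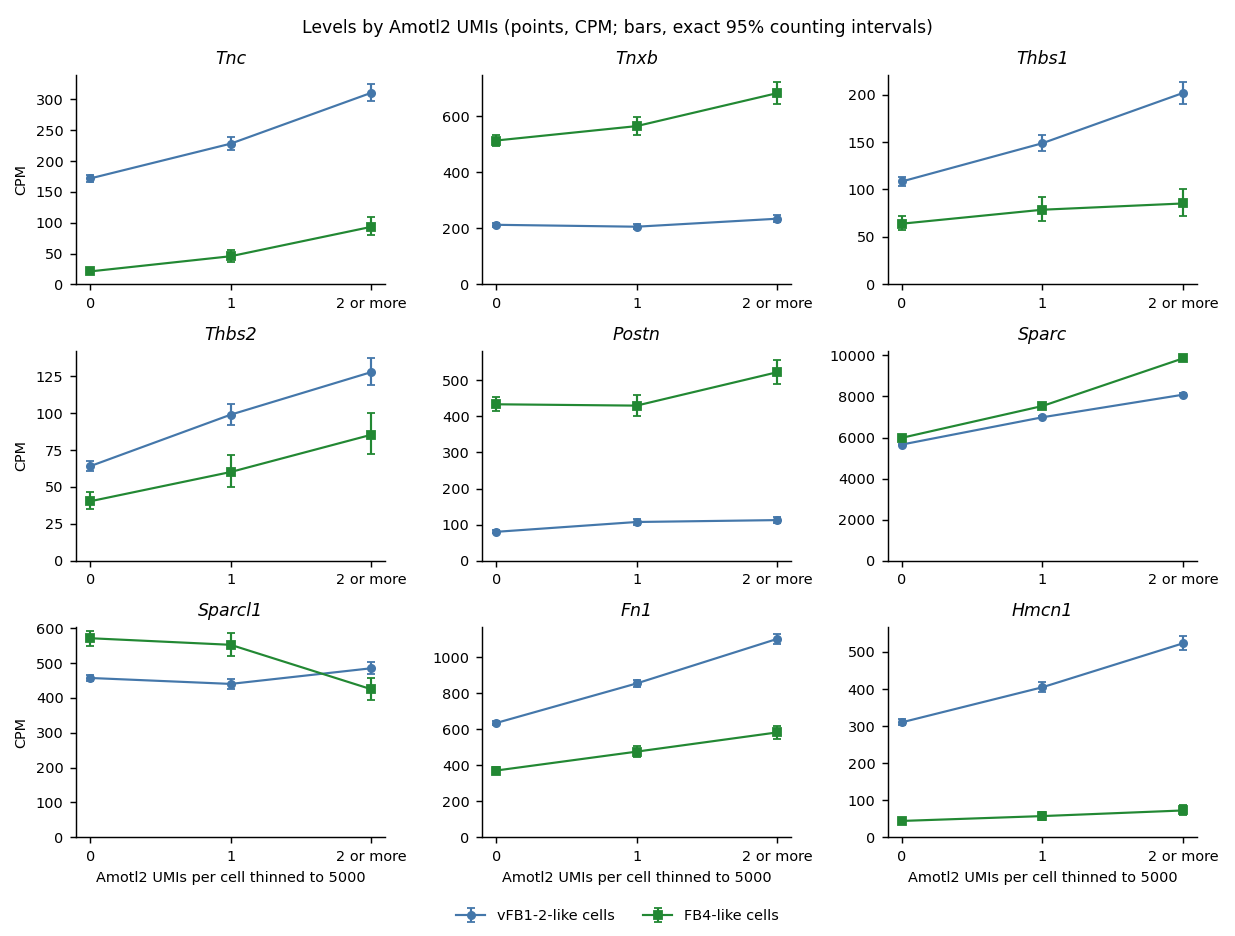
Level of each member with UMIs (vertical axis, CPM, starting at 0) in cells with 0, 1 or at least 2 Amotl2 UMIs after thinning to 5000 UMIs (horizontal axis), in vFB1-2-like cells (circles) and FB4-like cells (squares), with exact 95% counting intervals as bars. Tnc, Thbs1, Thbs2, Sparc, Fn1 and Hmcn1 step up in both classes, while Sparcl1 falls from 572 to 425 CPM in FB4-like cells.

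In vFB1-2-like cells 5 of the 9 members, Thbs2, Thbs1, Tnc, Fn1 and Hmcn1, were at least 1.5-fold higher in cells with at least 2 Amotl2 UMIs than in cells with 0, against 3.56% of the 6032 genes with at least 500 UMIs in these cells. None of the 9 was 1.5-fold lower, against 1.87% of these genes. The median ratio was 1.69 over the 9 members and 1.02 over all genes tested. Among the 5, the promoter windows of Tnc and Hmcn1 hold GGAAT, that of Thbs2 holds neither motif, and those of Thbs1 and Fn1 were not searched.

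The thrombospondins moved together here, unlike between classes. Thbs2 went from 64.1 CPM at 0 through 98.9 CPM at 1 to 128 CPM at 2 or more Amotl2 UMIs, a ratio of 1.99 (1.82–2.18) of the last to the first. Thbs1 went from 109 through 149 to 202 CPM, a ratio of 1.86 (1.73–2.00). For both, every step lay beyond the counting intervals of its neighbours, and the ratio exceeded 1.5 in M and in F columns, at 2.09 in M and 1.92 in F columns for Thbs2 and at 2.21 and 1.62 for Thbs1.

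The tenascins differed in the pooled class. Tnc went from 172 through 228 to 311 CPM, a ratio of 1.81 (1.71–1.91), and Tnxb from 213 through 206 to 234 CPM, a ratio of 1.10 (1.04–1.17). In M columns alone the Tnxb ratio was 1.01 (0.920–1.11), which does not differ from 1 beyond counting error. Tnc gave 1.72 in M and 2.00 in F columns.

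Fn1 went from 634 through 854 to 1102 CPM, a ratio of 1.74 (1.68–1.79), and Hmcn1 from 310.2 through 405 to 523 CPM, a ratio of 1.69 (1.62–1.76). Sparc and Postn rose less, by 1.43-fold (1.41–1.44) from 5662 to 8086 CPM and by 1.40-fold (1.28–1.54) from 80.2 to 113 CPM. The Postn ratio in M columns was 1.18 (0.985–1.41). Sparcl1 stood at 458, 440 and 485 CPM, a ratio of 1.06 (1.02–1.11). Among the genes set beside the members, Amotl2 itself was 6.92-fold higher by construction, Vegfc, a lymphatic growth factor, 2.44-fold, Lats2, itself a YAP/TAZ target, 1.66-fold and Pdgfrb 1.34-fold, while Lats1 gave 0.970 (0.749–1.25) and Fos 1.03.

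**Figure D3:**
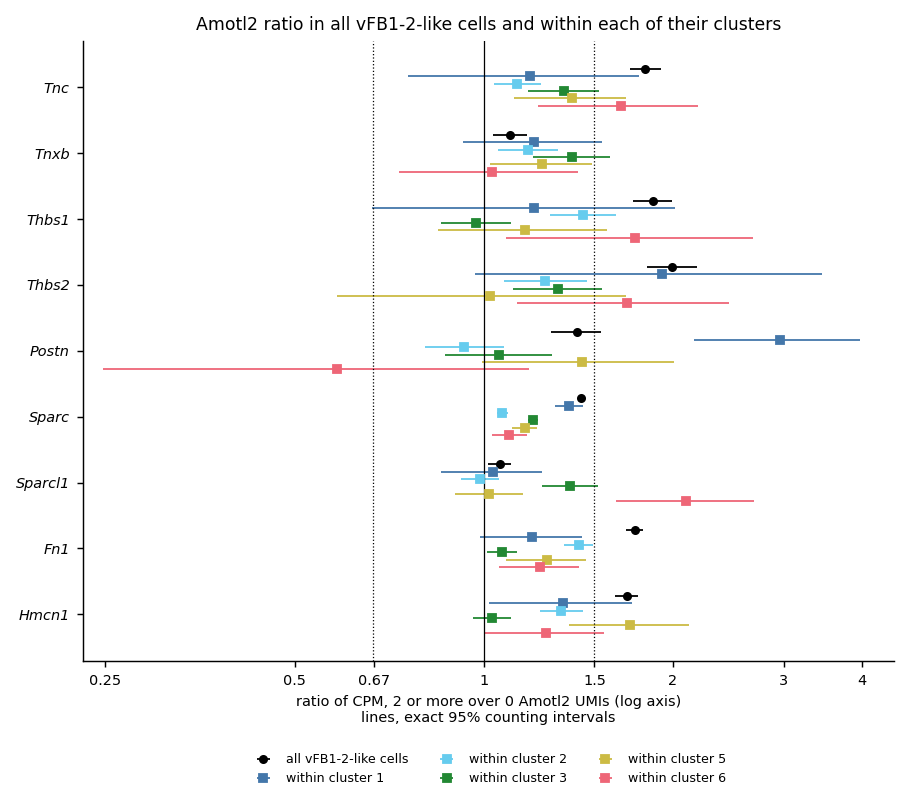
Ratio of CPM between cells with at least 2 and cells with 0 Amotl2 UMIs (horizontal axis, log scale, dotted lines at 1.5-fold) for each member (rows), in all vFB1-2-like cells (black) and within each of their 5 clusters (colours), with exact 95% counting intervals. Most within-cluster ratios lie between 1 and the pooled ratio.

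Part of these differences lay between clusters rather than within them. Inside single vFB1-2-like clusters, the number of members at least 1.5-fold higher was 2 in cluster 1, against 8.68% of genes with at least 100 UMIs in the cells compared, 0 in cluster 2, against 2.44%, and 0 in cluster 3, against 1.99%. It was 1 in cluster 5, against 6.14%, and 4 in cluster 6, against 8.84%. The number at least 1.5-fold lower was 0 in clusters 1, 2, 3 and 5, against 15.1%, 0.924%, 1.08% and 7.38%, and 1 (Postn) in cluster 6, against 9.53%. The upper strata held 20, 262, 164, 30 and 19 cells in clusters 1, 2, 3, 5 and 6. The direction was kept more widely than the size. Sparc was above 1 beyond counting error in 5 of 5 clusters, with ratios of 1.07 to 1.37, and Tnc, Fn1 and Hmcn1 in 4 of 5. Tnc ran from 1.13 in cluster 2 to 1.65 in cluster 6, Fn1 from 1.07 in cluster 3 to 1.41 in cluster 2 and Hmcn1 from 1.03 in cluster 3 to 1.71 in cluster 5. Tnxb ran from 1.03 in cluster 6 to 1.38 in cluster 3 and was above 1 beyond counting error in 3 of 5, and in clusters 1, 2 and 3 its ratios of 1.204, 1.18 and 1.38 stood beside 1.18, 1.13 and 1.34 for Tnc, so the gap between the tenascins in the pooled class was not seen there. Thbs1 was above 1 beyond counting error in 2 of 5 clusters and gave 0.973 (0.856–1.11) in cluster 3. Thbs2, which had the largest pooled ratio, was above 1 beyond counting error in 3 of 5. It ran from 1.02 (0.584–1.69) in cluster 5 to 1.92 (0.969–3.45) in cluster 1. Sparcl1 reached 2.10 (1.62–2.69) in cluster 6 but 0.985 in cluster 2. Postn was the least even, with 2.96 (2.16–3.97) in cluster 1 on 20 cells in the upper stratum and 0.584 (0.248–1.18) in cluster 6 on 19 cells. Without cluster 3 the pooled ratios were larger, 2.38 for Thbs1 and 2.07 for Tnc, and Postn passed the limit as well at 1.59. Without cluster 6 the same 5 members passed it and Sparcl1 gave 0.984 (0.943–1.03), and without both clusters Thbs2 gave 2.60, Fn1 2.28, Hmcn1 2.24 and Tnc 2.08.

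The same question was put to FB4-like cells, in which 397, 164 and 122 cells had 0, 1 and at least 2 Amotl2 UMIs. Median depth was 11705, 12152 and 14012 UMIs, and the share of M columns fell from 51.4% to 36.6% and 32.0%. At least 1.5-fold higher were 5 of the 9 members, Tnc, Thbs2, Hmcn1, Sparc and Fn1, all 9 having at least 100 UMIs in the cells compared, against 6.60% of the 6716 genes with that many. None was 1.5-fold lower, against 3.89%. With the limit of 500 UMIs used elsewhere, 5 members remained and 2 of these, Sparc and Fn1, were 1.5-fold higher, against 6.59% of 1850 genes, and none lower, against 2.70%. The split mattered here. In F columns Sparc gave 1.496, Fn1 1.42 and Hmcn1 1.30 (0.993–1.70), and among cells with Fos below the median Thbs2 gave 1.16 (0.802–1.67), Fn1 1.43 and Hmcn1 0.928 (0.634–1.33), all under the limit.

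**Figure D4:**
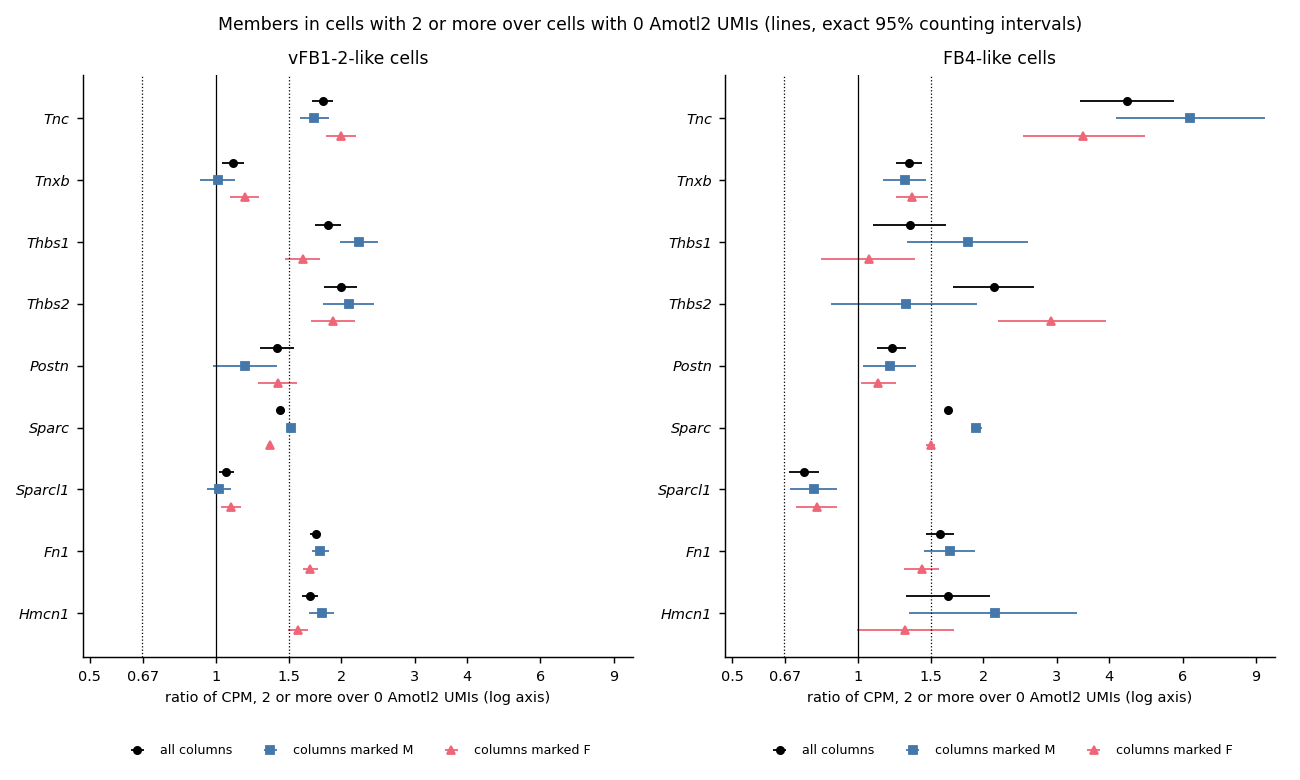
Ratio of CPM between cells with at least 2 and cells with 0 Amotl2 UMIs (horizontal axis, log scale, dotted lines at 1.5-fold) for each member (rows) in vFB1-2-like cells (left) and FB4-like cells (right), in all columns and in columns marked M and F, with exact 95% counting intervals. Tnc stands out on the right at 4.41, and Sparcl1 lies below 1 there in M and F columns alike.

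Tnc, lowest of all classes in FB4-like cells as a whole, showed the steepest gradient inside them. It went from 21.2 CPM (17.3–25.8) at 0 through 45.8 CPM (37.1–55.9) at 1 to 93.4 CPM (79.5–109) at 2 or more Amotl2 UMIs, from 101, 96 and 161 UMIs. The ratio was 4.41 (3.41–5.71), with 6.24 in M and 3.47 in F columns. It was 2.44 times (1.89–3.15) the ratio in vFB1-2-like cells. The level at 0 lay not far above the free RNA bound of 15.9 CPM, and the ratio was 14.7 with that bound subtracted. It was 2.56 (1.93–3.38) with cells thinned to 3000 UMIs and 9.87 when unthinned cells were ordered by their Amotl2 level.

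Sparcl1 went the other way in this class, from 572 CPM (551–594) through 553 to 425 CPM (395–457), a ratio of 0.744 (0.685–0.807), which was 0.785 in M and 0.797 in F columns. Against vFB1-2-like cells its ratio was 0.701 times (0.640–0.768) as large. Its relative Sparc rose from 5990 through 7537 to 9855 CPM, by 1.65-fold (1.61–1.68). Thbs2 rose from 40.3 to 85.3 CPM, by 2.12-fold (1.70–2.64), though by 1.30-fold (0.861–1.93) in M and 2.91-fold (2.16–3.93) in F columns. Thbs1 went from 64.0 to 85.3 CPM, 1.33-fold (1.09–1.63), with 1.84 (1.31–2.55) in M and 1.06 (0.818–1.37) in F columns, and its pooled ratio was 0.717 times (0.582–0.884) that of vFB1-2-like cells.

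Fn1 rose from 370.1 through 475 to 582 CPM, by 1.57-fold (1.45–1.70), and Hmcn1 from 43.7 to 71.9 CPM, by 1.65-fold (1.31–2.07). Set against the vFB1-2-like ratio, Fn1 gave 0.906 (0.833–0.984) and Postn 0.858 (0.761–0.967), both lower in FB4-like cells. The intervals of this ratio between classes included 1 for Hmcn1 (0.779–1.23) and Thbs2 (0.841–1.34). Postn and Tnxb, both high in this class, rose by 1.205-fold (1.11–1.30) and 1.33-fold (1.24–1.42). For Tnxb this exceeded the vFB1-2-like ratio by 1.21 times (1.10–1.32).

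In FB5-like cells only 36 cells had at least 2 Amotl2 UMIs, against 109 with 0. Hmcn1 was higher by 2.17-fold (1.47–3.18), Thbs1 by 1.93-fold (1.39–2.67) and Sparcl1 by 1.49-fold (1.23–1.80). In M columns neither Hmcn1, at 1.23 (0.545–2.51), nor Thbs1, at 1.61 (0.888–2.80), differed from 1 beyond counting error. Postn gave 0.171 (0.0199–0.667) from 36 UMIs, with an upper level of 4.31 CPM that lay below its free RNA bound and a ratio of 0.371 (0.0404–1.67) in F columns. Fos was 2.81-fold higher in the same cells, and its part in these ratios was not tested.

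Whole clusters of the vFB1-2-like class were also compared, in pairs that differ in Amotl2 on the same side of the class level of Fos, an immediate early gene that can answer to cell handling. Cluster 3 stood against clusters 1 and 6 (Amotl2 at 192 against 53.0 CPM, Fos at 104 against 463 CPM), and cluster 2 against cluster 5 (Amotl2 at 278 against 74.1 CPM, Fos at 1805 against 2835 CPM). In the first pair 5 members were at least 1.5-fold higher where Amotl2 was high, against 5.16% of 4963 genes, and 2 were 1.5-fold lower, against 7.56%. In the second, 7 were higher, against 6.84% of 4062 genes, and 0 lower, against 3.55%.

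**Figure D5:**
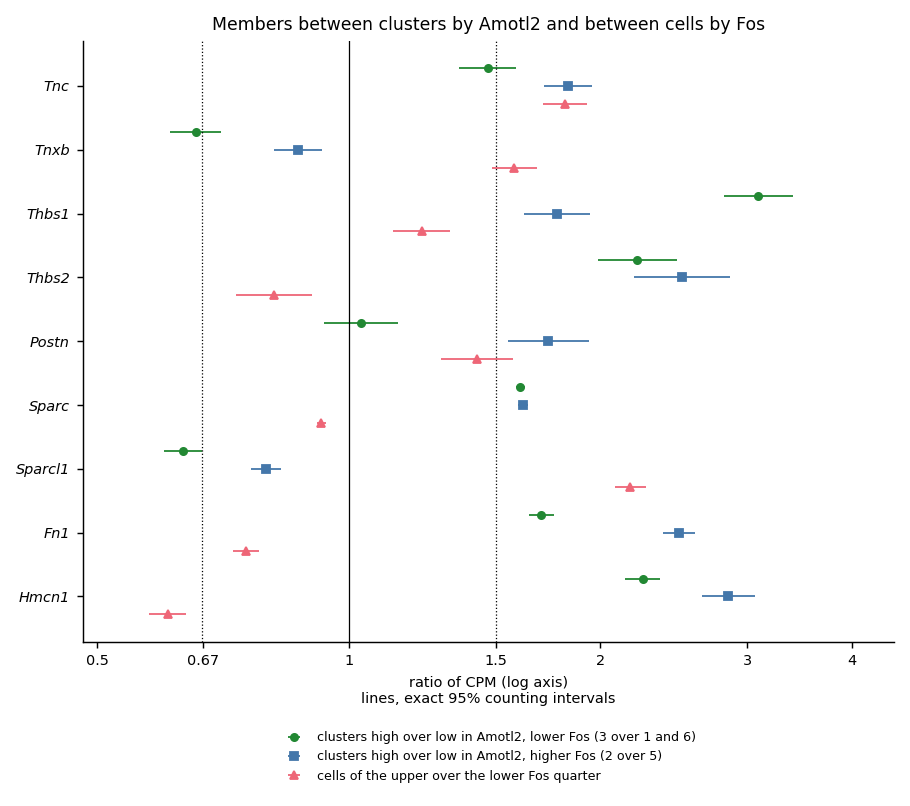
Ratio of CPM (horizontal axis, log scale, dotted lines at 1.5-fold) for each member (rows) between clusters high and low in Amotl2 with lower Fos (circles) and with higher Fos (squares), and between cells of the upper and lower 25% by Fos of the vFB1-2-like class (triangles), with exact 95% counting intervals. Thbs2, Sparc, Fn1 and Hmcn1 are above 1 in both pairs and below 1 by Fos (Sparc in F columns only), and Sparcl1 is the reverse.

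Thbs1, Thbs2, Sparc, Fn1 and Hmcn1 exceeded 1.5-fold in both pairs. Hmcn1 was at 569 against 253 CPM in the first, 2.25-fold (2.14–2.36), and at 466 against 164 CPM in the second, 2.85-fold (2.65–3.06). Thbs1 was 3.09-fold (2.81–3.40) and 1.77-fold (1.62–1.94) higher, Thbs2 2.21-fold and 2.50-fold, Fn1 1.70-fold and 2.48-fold, and Sparc 1.61-fold and 1.62-fold. Tnc gave 1.47-fold (1.36–1.58) and 1.83-fold (1.71–1.957). Postn gave 1.04 (0.935–1.15) and 1.73-fold (1.55–1.94). In the first pair the values depended on the clustering. Thbs2 gave 4.53 and Fn1 2.76 at resolution 1.0, Thbs2 gave 4.22 without the immediate early genes in the clustering, and Postn was 1.38 (1.25–1.54) to 1.47 (1.33–1.61) in these settings and with nothing regressed out.

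Clusters 1 and 6, pooled as the Amotl2-low side of the first pair, were unlike each other. For Thbs2 cluster 3 stood at 109 CPM (102–116), cluster 1 at 26.7 CPM and cluster 6 at 103 CPM (92.4–115), and for Fn1 at 940 CPM, 408 CPM and 901 CPM (868–935), so that the pooled ratios of both rest on cluster 1. Tnc was at 165 CPM in cluster 3, 83.9 CPM in cluster 1 and 181 CPM in cluster 6. For Hmcn1 (569, 195 and 394 CPM), Thbs1 (181, 51.3 and 76.0 CPM) and Sparc (7839, 4916 and 4809 CPM) cluster 3 was above each of them.

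Sparcl1 and Tnxb had ratios below 1 in both pairs. Sparcl1 stood at 249 against 393 CPM in the first pair, a ratio of 0.634 (0.601–0.668), and at 578 against 726 CPM in the second, a ratio of 0.796 (0.763–0.830). The 393 CPM pools 474 CPM in cluster 1 with 199.7 CPM (184–216) in cluster 6, which was below cluster 3. For Tnxb the ratios were 0.656 (0.611–0.703) and 0.869 (0.814–0.929). Among single cells ordered by Amotl2, however, both had ratios slightly above 1, as given above, that of Sparcl1 not without cluster 6. These lower values depended on the clustering. At resolution 1.0 Tnxb gave 1.09 (1.02–1.16) in the first pair and Tnc 3.13 (up from 1.47), and without the immediate early genes in the clustering Sparcl1 gave 1.09 (1.04–1.13).

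Since Fos differs between these clusters, the members were also ordered by Fos itself within vFB1-2-like cells. The 755 cells in the upper 25% (3407 CPM of Fos) were set against 1024 cells in the lower 25%, which the ties at 0 enlarged and of which none had a Fos UMI. Columns marked M made up 57.1% of the upper and 47.0% of the lower cells, and median mitochondrial UMIs were 4.60% and 5.20%. At least 1.5-fold higher were 3 of the 9 members, Sparcl1, Tnc and Tnxb, against 6.48% of 5060 genes, and 1, Hmcn1, was 1.5-fold lower, against 2.09%. Sparcl1 went from 314 to 681 CPM, 2.17-fold (2.08–2.27), Tnc from 161 to 292 CPM, 1.82-fold (1.71–1.93), and Tnxb from 168 to 265 CPM, 1.58-fold (1.48–1.68). Hmcn1 fell from 439 to 267 CPM, a ratio of 0.608 (0.577–0.639), and Fn1 from 808 to 609 CPM, a ratio of 0.753 (0.727–0.780). Thbs2 gave 0.814 (0.733–0.904), Sparc 0.927 (1.01 in M and 0.883 in F columns), Thbs1 1.22 (1.13–1.32) and Postn 1.43 (1.29–1.57). Amotl2 was 1.16-fold (1.08–1.25) higher in the upper 25%. Over the class as a whole, Tnc thus rose along both Amotl2 and Fos, whereas Fn1, Hmcn1 and Thbs2 rose along the first and fell along the second. Fos was not compared within clusters. Between the clusters high in Amotl2, Fn1 stood at 1116 CPM in cluster 2 (higher Fos) against 940 CPM in cluster 3 (lower Fos). Thbs2 stood at 127 against 109 CPM there, while Hmcn1, at 466 against 569 CPM, was lower with higher Fos. Among cells with Fos below the median of the class, the Amotl2 ratios stayed at 1.79 for Tnc, 1.72 for Fn1, 1.54 for Hmcn1 and 2.01 for Thbs2.

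Of 20 related genes (other tenascins, thrombospondins, SPARC relatives, fibulins and hemicentin 2), 19 were in the table, and 12 of these had at least 500 UMIs in the vFB1-2-like cells compared by Amotl2. Among the 12, 3 were at least 1.5-fold higher and 2 lower, against 3.56% and 1.87% of all genes tested, and the median ratio was 1.07 against 1.69 for the members. The higher ones were Smoc2, a SPARC relative, at 2.19-fold (2.04–2.35), and the elastic-fibre fibulins Efemp1 at 1.97-fold (1.91–2.02) and Fbln5 at 1.83-fold (1.79–1.87). In FB4-like cells the same genes gave 3.12, 2.37 and 3.47-fold. The lowest ratios among those with at least 100 UMIs were those of the proteoglycan Spock2 at 0.469 (0.381–0.572), Vwa1 at 0.534 (0.399–0.704) and the fibulin Fbln1 at 0.595 (0.577–0.613). In FB4-like cells these gave 0.811 (0.648–1.01), 0.372 (0.224–0.589) and 0.733 (0.708–0.759), so that Spock2 and Fbln1 were not 1.5-fold lower there. FB4-like cells were highest for Fbln1, at 2974 CPM against 1205 CPM in vFB1-2-like cells, and also for Fbln2, Spock2 and Thbs3. By class, 9 of the 13 related genes with at least 500 UMIs spanned 5-fold or more, against 14.8% of all genes with that many.

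Of 13 listed receptors that bind these proteins, 8 had at least 500 UMIs in the cells compared, and 0 of them passed 1.5-fold in either direction in vFB1-2-like cells, against 3.56% of all genes higher and 1.87% lower, a count near the background. Their median ratio was 1.01. Among those with at least 100 UMIs the integrin subunits Itga4 and Itga9 and the hyaluronan receptor Cd44 had the largest ratios, 1.56 (1.10–2.20), 1.43 (1.17–1.74) and 1.35 (1.18–1.54). The lowest were Itgb3 at 0.707 (0.584–0.850), the thrombospondin receptor Cd47 at 0.958 (0.915–1.003) and Itgb5 at 0.965 (0.895–1.04). Itga9, part of a tenascin-C receptor, stood at 144 CPM in vFB3-like cells, the class highest in Tnc, against 19.6 CPM in vFB1-2-like cells. The other classes did not keep the order of Tnc. FB5-like cells, above vFB1-2-like cells in Tnc, had 12.005 CPM of Itga9. SMC-like cells, below vFB1-2-like cells in pooled Tnc, had 89.3 CPM. FB4-like and MC-like cells, also lower in Tnc, had 19.48 and 10.56 CPM.

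Across the 10 clusters, the genes most like a member were named by Pearson's r of log2(CPM + 5), as a description over points that share 1 library. For Tnxb they were Slit3 (r = 0.98), Pdcd4 (0.98) and Ccdc80 (0.97), and for Tnc they were Col27a1 (0.92), Hmces (0.91) and Iffo2 (0.91). Ssr3 was named for both Thbs1 (0.93) and Fn1 (0.94). The first gene for the others was Mob3c for Thbs2, Sspn for Postn, Qpct for Sparc, Enpep for Sparcl1 and Tcf21 for Hmcn1, with r of 0.93 to 0.97. Of the 27 names, 21 stayed when genes down to 100 UMIs were admitted and 10 when each cluster was split into M and F columns.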

How the data were processed

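Single-cell RNA of 1 library (LATS1/2 KO 1w) was analysed. According to their methods and the processing notes, the authors aligned reads to mm10 with Cell Ranger 3.0.2, kept cells with 1000 to 6000 genes (more were taken as doublets) and at most 7% mitochondrial UMIs, removed immune and endothelial cells, and used Seurat. No further doublet caller was run here. For each cell the authors deposited the natural log of UMIs scaled to 10000 per cell, after adding 1. All (100% within a tolerance of 0.001) were whole multiples of 1 UMI, so UMI counts were read back. The design had assumed counts.

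Cells were clustered with Seurat 5.3.0 (R 4.3.3): 2000 variable genes, less members, relatives, receptors, targets and sex-linked genes (1964 used; Itga8, a vFB3 marker, stayed), UMI count and mitochondrial percent regressed out, 30 components, Louvain resolution 0.5. A cluster took the name of a list if at least 3 of its markers came within 2-fold of their highest cluster level and were found in 10% of cells, a rule set after cluster levels were seen. Poisson and conditional binomial intervals (scipy 1.17.1) were tested on simulated data. With 1 library there was no replicate and no p-value. Named genes were the members, and for each list the 3 largest and 3 smallest Amotl2 ratios. Members and lists were chosen with earlier results of these data known. Identifiers are from GENCODE M21.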

Additional observations from a re-analysis of the deposited data

How the results depend on the processing

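The number of members at least 1.5-fold lower in clusters high in Amotl2 with lower Fos, 2 in the report, was 0 at resolution 1.0, with nothing regressed out, without immediate early genes in the clustering and among cells with 8000 to 14000 UMIs, and 1 with 20 principal components and in F columns. Tnxb there turned to 1.09 at resolution 1.0 and Sparcl1 to 1.09 without immediate early genes. In FB4-like cells the number 1.5-fold higher by Amotl2 fell from 5 to 2 in F columns and to 2 among cells with Fos below the median, where Hmcn1 turned to 0.928, and to 2 with the limit of 500 UMIs in place of 100, which leaves 5 members, and the number lower went from 0 to 1 (Sparcl1) after thinning to 3000 UMIs and to 1 with at least 3 Amotl2 UMIs. In vFB1-2-like cells the number higher, 5 in all, was 2, 0, 0 and 1 within clusters 1, 2, 3 and 5, where Thbs1 turned to 0.973 in cluster 3, and 1 member was lower within cluster 6. By Fos, 2 members in place of 1 were lower with at most 5% mitochondrial UMIs. For related genes the number lower by Amotl2 was 1 in M and 1 in F columns in place of 2. Genes most like each member shared 10 of 27 names after the split into M and F. The cause was not tested for any of these. Of the other alternatives none moved a number of members or related genes by over 1.5 times. The pair with lower Fos gave no value at resolution 0.2, nor did the pair with higher Fos there or without immediate early genes. Within-cluster values and those without cluster 3, 6 or both were chosen after seeing the data. No paired analysis was possible because 1 library was analysed.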
